A study of Canis lupus familiaris with 18 samples.

Results

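Many chromatin regions of the dog pons, a part of the brainstem, were called as acetylated in the peak list of a single dog and in no other list. *H3K27ac*, the acetylation of a lysine on histone H3, sits on nucleosomes around active promoters and enhancers, where acetyltransferases place it and deacetylases remove it. It is read by *ChIP-seq*, in which an antibody pulls down the chromatin that carries the mark and the DNA is sequenced. A peak is a stretch where the sequenced fragments pile up above the local background. *E2F1*, assayed in the same dogs, is a transcription factor best known for switching on genes of DNA replication and the cell cycle, and it binds mostly at promoters.

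The peak lists came from 6 male dogs of 12 to 16 years, with 1 *H3K27ac* and 1 *E2F1* list per dog from flash-frozen pons. Of these, 3 were heterozygous for a transposable element insertion in *GTF2I* (the ancestral allele) and 3 were homozygous for the derived allele without it. They are called ancestral dogs 1 to 3 and derived dogs 1 to 3. Ancestral dog 1 was a Labrador Retriever and the others were of mixed breed, so this breed was seen in 1 dog of 1 genotype and cannot be told apart from that dog. The dogs also differed at other transposable element sites, and no engineered allele or treatment is named for any of them. Each dog gave 1 library per antibody, and nothing in the labels ties dogs of the same number together.

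The 6 *H3K27ac* lists held 96561 to 138141 peaks each on the 38 numbered autosomes of CanFam3.1. Peaks of any dogs that overlapped or touched were merged, which gave 175766 regions, and the regions with a peak in exactly 1 dog were kept. They numbered 65115, which is 37.0% of all merged regions, and each consisted of 1 peak. They were chosen by the measured peaks themselves, so their number, width, position and strength are descriptions without a test. The counts of the dogs also depend on each other, since a region belongs to 1 dog only because the other lists lack a peak there. The lists give no reads, so the depth behind a peak is not known from them, and nothing is known of a locus in a dog whose list has no peak there. No CanFam3.1 annotation was used here, so the tissue was not checked against marker genes, and the regions are given by position and not by gene.

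The regions found in 1 dog were the most numerous class but made up little of the acetylated sequence. Regions with a peak in 2, 3, 4 and 5 dogs numbered 22874, 14553, 12021 and 13219, and those called in all 6 dogs numbered 47984. The single-dog regions covered 44.9 Mb, or 10.1% of the length of all merged regions. The regions called in all 6 dogs, which are 27.3% of the number, covered 293.4 Mb, or 65.9%. The counts thus had a high end at 1 dog and another at 6 dogs, with fewer regions between.

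The dogs contributed very unequally, and the order did not follow genotype. Ancestral dog 1 had 25759 single-dog regions, ancestral dog 2 had 6882 and ancestral dog 3 had 3820. Derived dog 1 had 11541, derived dog 2 had 5313 and derived dog 3 had 11800. Ancestral dogs were at both the top and the bottom, and all 3 derived dogs fell between them, an order that held for the full lists and not for a stricter threshold. Ancestral dog 1 alone held 39.6% of the set and had the longest peak list, with 138141 peaks. Derived dog 2 had the shortest list, with 96561 peaks, but not the fewest single-dog regions.

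The mean was 12154 ± 11882 regions per ancestral dog and 9551 ± 3673 per derived dog (SD, n = 3 each). The derived minus ancestral difference was -2602 regions, less than the SD within either genotype. Relative to each dog's own merged regions, ancestral dogs 1 to 3 had single-dog shares of 21.8%, 8.57% and 4.70%, and derived dogs 1 to 3 had shares of 11.8%, 6.47% and 12.2%. The mean over the 6 dogs was 10.9% ± 6.07 (SD), and 6.91% when only peaks with a q below 1e-05 were merged. The shares differed by -1.52 percentage points between genotypes. Neither direction was stable. Without the list of ancestral dog 1 the derived dogs were higher, by 6618 regions and by 5.63 percentage points, and without that of derived dog 2 they were higher in share, by 0.335 points.

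List length moved with the count. When the 96561 peaks with the highest −log10 q were kept in each list, ancestral dogs 1 to 3 had 10433, 8590 and 4833 single-dog regions and derived dogs 1 to 3 had 8188, 8429 and 8823. Ancestral dog 1 was then still the highest, but the excess over the next dog shrank from 13959 to 1610 regions. Ancestral dog 3 stayed the lowest. The derived minus ancestral difference turned to 528 regions and 0.442 percentage points, with ancestral dog 1 included. The order itself changed when only peaks with a q below 1e-05 were merged. There were then 1443, 2561 and 2226 single-dog regions in ancestral dogs 1 to 3, while derived dogs 1 to 3 had 2411, 4153 and 1338. Derived dogs were now at the top and the bottom with all 3 ancestral dogs between them, and the share of ancestral dog 1 was 4.84% in place of 21.8%.

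**Figure D1:**
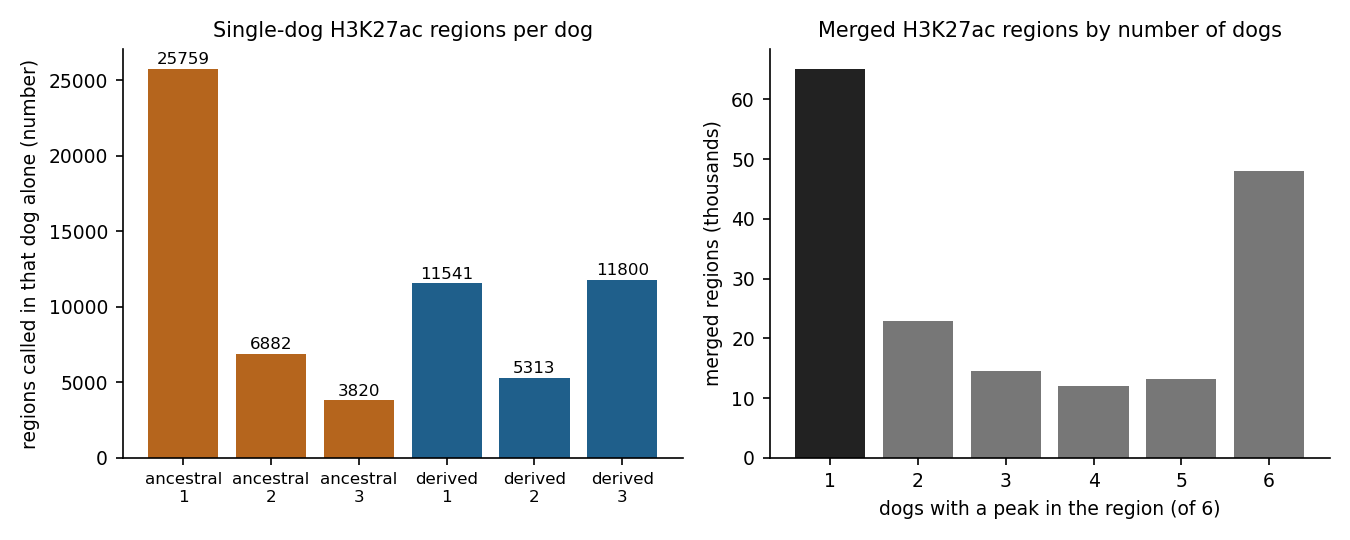
Left, the number of *H3K27ac* regions called in each dog alone, for the 3 ancestral dogs (brown) and the 3 derived dogs (blue), 1 bar per dog. Right, merged regions (axis in units of 1000) by how many of the 6 dogs had a peak there, with single-dog regions in black. Ancestral dog 1 stands above all other dogs with 25759 regions, and the counts by number of dogs are highest at 1 dog and at 6 dogs.

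Single-dog regions were narrow. Ancestral dogs 1 to 3 had median widths of 573, 488 and 424 bases, and derived dogs 1 to 3 of 467, 506 and 508 bases, a mean of 494 ± 49.6 bases over dogs (SD, n = 6). With only peaks of q below 1e-05 merged, this mean was 897 bases. The medians of all peaks in the same lists ran from 1173 to 1386 bases. Between 44.8% and 56.6% of each dog's single-dog regions were under 500 bases, and 0.55% to 3.21% reached 2000 bases. The narrowest measured 262 to 280 bases in the various dogs. The spread between dogs was thus small beside the distance from these peaks to the rest of each list.

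Width rose with the number of dogs. Merged regions had medians of 519 bases for 1 dog, 1055 for 2 dogs, which lie just outside the threshold, 1412 for 3, 1759 for 4, 2160 for 5 and 4118.5 for all 6. Merging several peaks widens a region by construction, and the single peaks inside the regions showed the same order. Their median widths were 519, 654, 745, 841, 987 and 1979 bases from 1 to 6 dogs. A wider peak also has more room to meet another dog's peak, so the choice of regions bears on this order too.

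Most single-dog peaks were weak in their own list. Each peak carries a fold enrichment, the pileup over the local background, and a q value, the p-value adjusted for multiple testing. Neither is scaled between dogs, so peaks were ranked by q within a list. The median single-dog region stood at percentile 19.2, against 23.5 for regions of 2 dogs and 67.8 for regions of all 6. In the lists taken singly, the median percentile ran from 13.8 to 21.5. Taken list by list, the median fold enrichment of single-dog regions ran from 2.41 to 2.63, against 2.90 to 3.16 for all peaks of the same lists.

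A minority were strong. In all, 6956 single-dog regions (10.7%) lay above the median of their own list. The study's stated level for *H3K27ac*, a q below 0.05, was met by 83.2%, and 1197 regions (1.84%) had a q below 1e-05. Ancestral dogs 1 to 3 had 167, 261 and 108 of them and derived dogs 1 to 3 had 219, 328 and 114. The whole lists, of 96561 to 138141 peaks, held 33995 to 41909 peaks each with a q below 1e-05, a far larger part. List by list, the median −log10 q was 2.66 to 4.01 for all peaks and 1.62 to 2.05 for single-dog regions. Derived dog 2 had the shortest list and ancestral dog 1 the longest, and since q is not scaled between dogs these counts are given side by side only. A fold enrichment above 10 was reached by 7 regions.

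The strongest member of each dog shows how far these exceptions go. In derived dog 3, a 1114-base region at chr1:23193150-23194263 reached a fold enrichment of 54.3, with a −log10 q of 392.2, and lay 405561 bases from a region called in all 6 dogs. In ancestral dog 1, a 950-base region at chr37:28698581-28699530 reached a fold enrichment of 31.0, with a −log10 q of 1319.6. Both ranked above percentile 99.9 of their lists, and neither overlapped an *E2F1* peak of any dog. In derived dog 1, a 369-base region at chr4:11480287-11480655 had a fold enrichment of 21.8. It also held the *E2F1* peak with the highest −log10 q over that dog's single-dog regions, with an *E2F1* fold enrichment of 582, and no other dog's *E2F1* peak lay there.

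The strongest members of the other dogs lay nearer to shared chromatin. In derived dog 2 it was at chr11:65245924-65247090, where the fold enrichment was 18.1 and the −log10 q 148, and in ancestral dog 3 at chr11:64942054-64942449, with 13.3. In ancestral dog 2 it was at chr20:21610707-21611084, where the fold enrichment was 5.09 and the −log10 q 18.7. These 3 regions lay within 1234 to 1684 bases of a region called in all 6 dogs, against 46738 and 405561 bases in ancestral dog 1 and derived dog 3 and 3710 in derived dog 1.

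The widest single-dog region of all, 6818 bases, was in derived dog 1 at chr26:25883581-25890398. Its fold enrichment was 8.04, at percentile 95.6 of the list, it lay 1077741 bases from any region called in all 6 dogs, and an *E2F1* peak of the same dog fell inside it. The widest regions of the other dogs measured 3395 to 5716 bases. Those of ancestral dogs 2 and 3 and derived dog 3 had fold enrichments of 2.38 to 2.53 and stood below percentile 17, so width alone did not mark a strong peak.

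The distance from single-dog regions to shared regions varied between dogs. No distance of arbitrary autosomal positions was computed to set beside it. Ancestral dogs 1 to 3 had median distances of 14380, 24045.5 and 12595 bases to a region called in all 6 dogs, and derived dogs 1 to 3 had 13471, 8034 and 14952.5 bases. The mean of these medians was 14580 ± 5250 bases (SD, n = 6), and 26063 bases with only peaks of q below 1e-05. Ancestral dog 2 was the farthest and derived dog 2 the nearest, with the other 4 between 12595 and 14952.5. Regions of 2, 3, 4 and 5 dogs were progressively nearer, with medians of 9610, 7709, 6911 and 5796 bases, against 14170 for all single-dog regions together.

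Within 1 kb of a shared region lay 2.69% to 5.06% of each dog's single-dog regions, and within 10 kb 32.1% in ancestral dog 2 to 54.9% in derived dog 2. More than 100 kb away lay 22.1% of those of ancestral dog 2, 5.12% of those of derived dog 2 and 8.90% to 11.4% of those of the other dogs. Ancestral dog 2 and derived dog 2 thus marked the ends of the set. Whether these shares differ from those of arbitrary autosomal positions was not tested.

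Another dog often had a peak not far off. The median distance to the nearest region with any other dog's peak was 2541 bases, and 17.3% of single-dog regions were under 1 kb from one. At least 5 kb from every other dog's peak lay 20214 regions (31.0%). That share ran from 17.7% in derived dog 2 to 38.3% in ancestral dog 2.

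**Figure D2:**
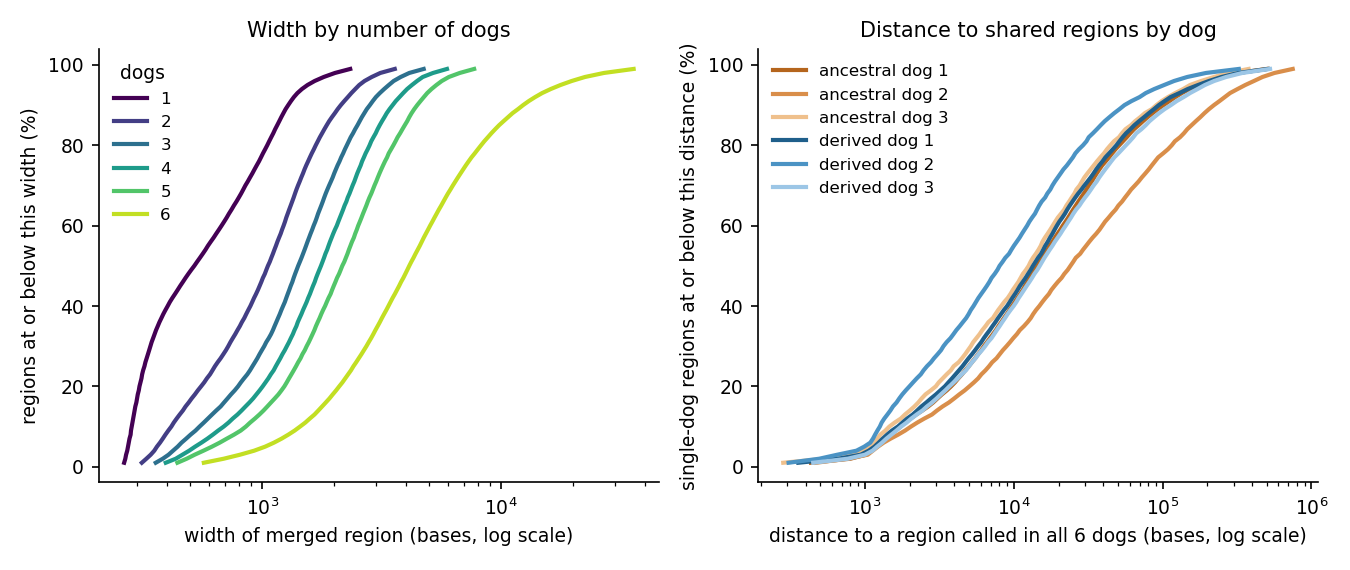
Left, cumulative share of merged regions (percent) by width in bases on a log axis, 1 line per number of dogs with a peak. Right, cumulative share of single-dog regions (percent) by distance in bases, on a log axis, to the nearest region called in all 6 dogs, 1 line per dog. Single-dog regions are the narrowest class, and ancestral dog 2 lies to the right of the other dogs with a median of 24045.5 bases while derived dog 2 lies to the left with 8034.

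Single-dog regions were found on every autosome and in 2210 of the 2215 bins of 1 Mb that held any merged region. By chromosome, the share of merged regions called in 1 dog ranged from 32.3% on chromosome 9 to 41.5% on chromosome 28, with a median of 37.3%. Their density ranged from 19.4 per Mb on chromosome 19 to 38.04 per Mb on chromosome 30. Regions called in all 6 dogs were also sparsest on chromosome 19, with 11.6 per Mb, and densest on chromosome 9, with 35.5 per Mb. The median distance from single-dog to shared regions was longest on chromosome 19, at 24408 bases, and shortest on chromosome 9, at 10281 bases.

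Ancestral dog 2 was unlike the other dogs in where its regions fell. The share of a dog's single-dog regions on a chromosome was divided by the share of all its merged regions there. In ancestral dog 2 this ratio ran from 0.434 on chromosome 9 to 1.57 on chromosome 19, with an SD of 0.246 over the 38 chromosomes. In the other dogs the SD was 0.0689 to 0.151. On chromosome 26 the ratio of ancestral dog 2 was 0.563, against 0.798 to 1.18 in the others. Chromosome 22 was above 1 in all 6 dogs and chromosome 20 below 1 in all 6.

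By genotype, the share of single-dog regions was higher in all 3 derived dogs than in all 3 ancestral dogs on chromosomes 27 and 33, and the reverse held on chromosome 7. The same comparison over all merged regions of each dog gave 0 chromosomes (0%) with the derived dogs above and 1 of 38 (2.63%), again chromosome 7, with the ancestral dogs above. On chromosome 33 ancestral dogs 1 to 3 had 1.16%, 1.16% and 0.942% of their single-dog regions, and derived dogs 1 to 3 had 1.53%, 1.26% and 1.28%. The counts for single-dog regions, 2 and 1 of 38 chromosomes, were thus close to this background.

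**Figure D3:**
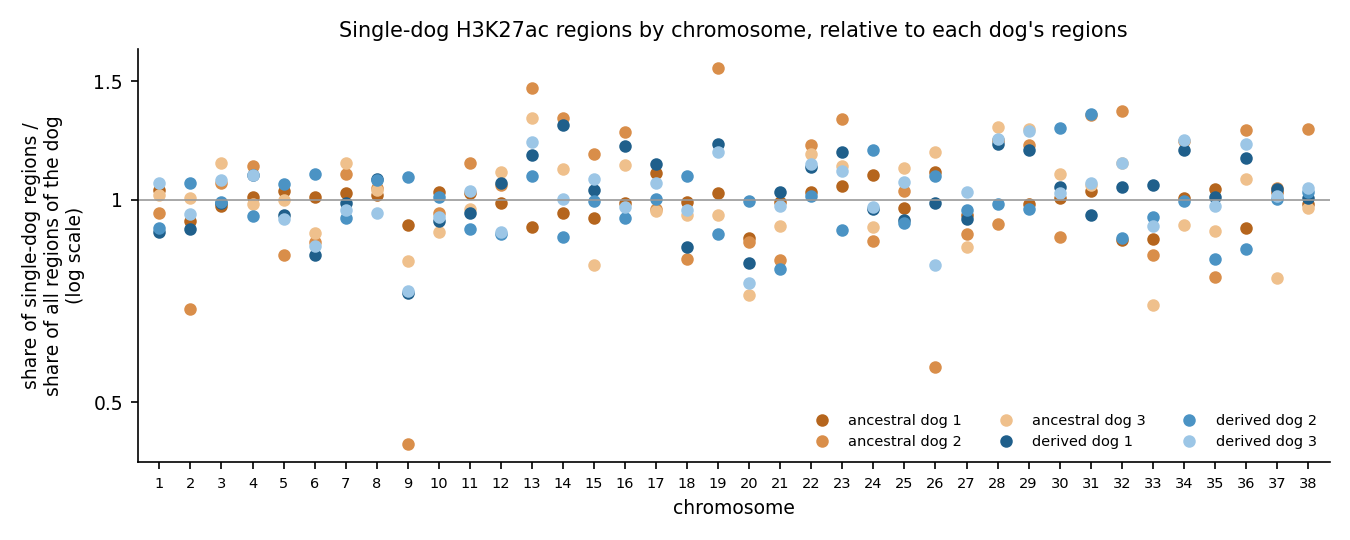
Ratio, on a log axis, of the share of a dog's single-dog regions on a chromosome to the share of all its merged regions there, for the 38 autosomes, 1 point per dog and chromosome. Points of ancestral dog 2 reach the lowest value, 0.434 on chromosome 9, and the highest, 1.57 on chromosome 19.

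Regions of the same dog also ran together locally, most clearly in ancestral dog 2. The nearest other single-dog region belonged to the same dog for 26.8% of the regions of ancestral dog 2, which held 10.6% of the set. In derived dog 2 these values were 15.1% and 8.16%, in derived dog 1 21.8% and 17.7%, and in ancestral dog 1 41.7% and 39.6%. In ancestral dog 3 they were 6.54% and 5.87%, and in derived dog 3 18.2% and 18.1%, almost the same.

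The fullest 1-Mb bin of each dog differed in kind. On chromosome 15 from 21 to 22 Mb, ancestral dog 2 had 30 single-dog regions and 47 peaks, where the other dogs had 2 to 12 peaks. No region there was called in all 6 dogs, and the peaks of ancestral dog 2 covered 41.7 kb, against 0.975 to 11.0 kb in the others. Few peaks were called in this stretch in 5 dogs and many separate ones in 1. On chromosome 13 from 17 to 18 Mb, derived dog 1 had 37 single-dog regions and 90 peaks covering 150 kb, where the other dogs had 37 to 70 peaks covering 55.5 to 82.8 kb. This bin held peaks of every dog, with 15 regions called in all 6.

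The fullest bin of ancestral dog 1 held 41 single-dog regions, on chromosome 2 from 76 to 77 Mb. Those of ancestral dog 3, on chromosome 7 from 80 to 81 Mb, derived dog 2, on chromosome 9 from 48 to 49 Mb, and derived dog 3, on chromosome 10 from 32 to 33 Mb, held 11, 15 and 19. These 3 bins were not particular to their dog, since another dog had up to 22, 17 and 19 single-dog regions there. The bin of derived dog 2 held 189 of its *E2F1* peaks, against 25 to 121 in the other dogs. Such bins held little of the whole, since the 10 fullest bins of a dog contained 1.44% to 3.46% of its single-dog regions. Copy number, mappability and cell makeup of these stretches were not tested. In bulk tissue, a mark on few cells and a weak mark on many cannot be told apart.

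Around *GTF2I*, the gene that holds the insertion, the share of single-dog regions was near that of chromosome 6 as a whole. Other windows of this size were not compared. The 2 Mb of chromosome 6 from 5 to 7 Mb held 286 merged regions, of which 92 (32.2%) were called in 1 dog and 73 in all 6, against 35.7% called in 1 dog on chromosome 6 as a whole. Ancestral dogs 1 to 3 had 44, 5 and 4 of the 92 and derived dogs 1 to 3 had 7, 14 and 18. The genotypes overlapped here, as they did genome-wide. Of the 92, 2 held an *E2F1* peak of their own dog, both in derived dog 2, at chr6:6172752-6173275 and chr6:6632784-6633639. Over all single-dog regions this share was 2.63%, so 2 of 92 is near the background. These 2 were named after their values were seen.

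The *E2F1* lists had no part in choosing the regions and so allow a test of whether the same dog carried another mark there. *E2F1* peaks with a q below 0.0005, the study's stated level, were used. Ancestral dogs 1 to 3 had 30961, 41132 and 50080 of them, and derived dogs 1 to 3 had 18947, 63306 and 35479. The paper describes its *E2F1* tracks as noisier than usual. It also cautions that low cross-correlation scores, a quality measure, mean that some *E2F1* sites may be missed. An *E2F1* peak of any dog overlapped 6819 single-dog regions (10.5%) by at least 1 base, against 29.1% of all merged regions. The share grew with the number of dogs, to 16.3%, 22.2%, 27.4%, 34.0% and 61.7% for 2 to 6 dogs. Width grew with the number of dogs too, and a wider region has more room for a peak. Counted per length by the midpoint of each *E2F1* peak, the 6 lists held on average 22.4 ± 4.30 peaks per Mb of single-dog regions, 23.5 ± 7.24 in regions of 2 dogs and 59.2 ± 30.02 in regions of all 6 (SD, n = 6 lists). The autosomes as a whole held 18.2 ± 7.01 per Mb. Within a list, single-dog regions were the denser in 6 of 6 lists, by 4.29 ± 3.23 peaks per Mb (SD, n = 6), from 0.385 in ancestral dog 3 and 0.512 in derived dog 2 to 7.48 in ancestral dog 1. This difference was not tested.

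Single-dog regions overlapped *E2F1* peaks of their own dog more often than those of the other dogs. Own-dog overlap in ancestral dogs 1 to 3 was 2.43%, 2.17% and 2.85% (625, 149 and 109 regions). For derived dogs 1 to 3 it was 1.33%, 8.13% and 2.08% (153, 432 and 246 regions). With the *E2F1* lists of the other 5 dogs, the regions of ancestral dogs 1 to 3 had a mean overlap of 2.24%, 1.11% and 1.92%, and those of derived dogs 1 to 3 of 1.65%, 3.04% and 1.72%. Own-dog overlap was the higher in 5 of 6 dogs, and derived dog 1, with the shortest *E2F1* list, was the exception.

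The mean own minus other difference was 1.22 ± 1.96 percentage points (SD, n = 6). When the *E2F1* lists were reassigned among the dogs in all 720 ways, the true pairing gave the largest difference (exact two-sided permutation test, p = 0.00139, the smallest this test can give). Derived dog 2 weighed heavily, with a difference of 5.09 points, against -0.328 to 1.05 in the other dogs, whose mean was 0.443 ± 0.567 (SD, n = 5). When its lists were left out and the regions chosen again among 5 dogs, the difference was 0.726 points (exact permutation test over 120 assignments, p = 0.00833, the smallest possible). An exact sign-flip test over the 6 dogs, which asks whether the mean of the per-dog differences is away from 0, gave p = 0.0938.

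Derived dog 2 also had the longest *E2F1* list. With the 18947 *E2F1* peaks of highest −log10 q kept in each dog, the mean difference fell to 0.322 ± 0.318 points (exact permutation test, p = 0.00139), with ancestral dog 3 as the only dog below 0. Derived dog 2, at 0.399, then no longer stood out, and derived dog 1, at 0.705, was the highest. Which dogs carried the difference thus changed when the lists were cut, while its sign over all 6 dogs did not. The cut shortened the longer lists and made their q cutoff stricter at once, so list length alone was not tested. Whether both assays of a dog share copy number, mappability or background was not tested.

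**Figure D4:**
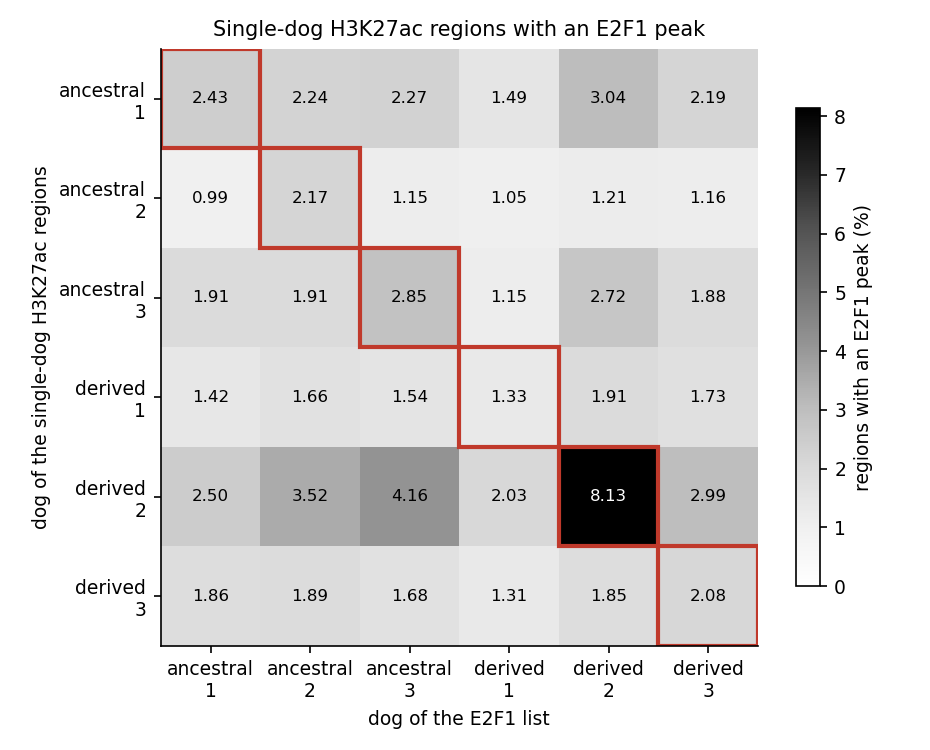
Percent of single-dog *H3K27ac* regions (rows, by dog) that overlap an *E2F1* peak of each dog (columns), with darker cells for higher percentages and red frames around the same dog in both assays. The frame of derived dog 2 holds the highest value, 8.13%, and in 4 of 6 rows the framed cell is the highest of its row.

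Read down the columns, the matrix is less uniform. In 4 of 6 dogs the *E2F1* list overlapped the dog's own regions more than it did the mean of the other dogs' regions. For derived dog 2 the values were 8.13% and 2.14%, for ancestral dog 1 2.43% and 1.74%, for ancestral dog 3 2.85% and 2.16%, and for derived dog 3 2.08% and 1.99%. The lists of ancestral dog 2, with 2.17% and 2.24%, and derived dog 1, with 1.33% and 1.41%, went the other way by under 0.1 points. The dog's own regions were the highest of the 6 sets for 1 list, that of derived dog 2, whose regions were the highest for the other lists as well. Regions of ancestral dog 2 had low overlap with all other dogs' *E2F1* lists, 0.988% to 1.21%, while those of derived dog 2 had high overlap, 2.03% to 4.16%.

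No difference by genotype was detected in the overlap with other dogs. The regions of a dog were set against the *E2F1* lists of the other 2 dogs of its genotype and against those of the other genotype, with a same minus other difference of -0.149 ± 0.394 points (SD, n = 6). The same genotype was higher in 2 of 6 dogs, and the exact sign-flip test gave p = 0.469.

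In all, 1714 single-dog regions held an *E2F1* peak of their own dog, and 1262 of these held no other dog's *E2F1* peak. The regions with an own-dog *E2F1* peak were wider than those without in every dog, with medians of 570 to 721 bases against 422 to 571. They did not lie consistently nearer to shared regions. In derived dog 2 the medians were 6742 bases with and 8222 without an own *E2F1* peak, while in derived dog 3 they were 22186 and 14864.

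Overlap with *E2F1* was on average greater for the stronger regions, though not in every dog. Among regions above the median of their own *H3K27ac* list, own-dog overlap averaged 5.77% ± 5.67 and other-dog overlap 2.72% ± 1.61 (SD, n = 6 dogs). Among those at or below the median the averages were 2.89% ± 2.12 and 1.87% ± 0.548. Without derived dog 2 the own-dog averages were 3.54% ± 1.76 and 2.04% ± 0.476 (SD, n = 5). Derived dog 1 had 1.35% and 1.32%, and in ancestral dog 2 other-dog overlap was 1.01% for the stronger and 1.12% for the weaker regions. In derived dog 2, 92 of 545 stronger regions (16.9%) held an own-dog *E2F1* peak, against 5.47% for the other dogs' lists. Width was not held fixed in this comparison. Regions at least 1000 bases wide had an average own-dog overlap of 4.57% ± 3.96 and other-dog overlap of 2.93% ± 1.02 (SD, n = 6 dogs). Strength and width were not tested apart. By distance, own-dog overlap averaged 3.24% within 10 kb of a shared region, 3.06% from 10 to 100 kb and 2.92% beyond 100 kb, and other-dog overlap 2.08%, 1.81% and 1.80%. The fall in the own-dog averages rested on derived dog 2, and the dogs moved in opposite directions behind it. Own-dog overlap in derived dog 2 was 8.98%, 7.44% and 4.41% from the nearest to the farthest class, while in derived dog 1 it was 1.27%, 1.19% and 2.32% and in derived dog 3 1.82%, 2.04% and 3.20%.

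Among each dog's single-dog regions, the one with the own *E2F1* peak of highest −log10 q differed in kind between dogs. In ancestral dog 1, a 336-base region at chr6:41489487-41489822 was overlapped by *E2F1* peaks of all 6 dogs. Its *H3K27ac* fold enrichment was 1.64 with a −log10 q of 177. The own *E2F1* peak stood at percentile 99.95 of that dog's *E2F1* list, with a fold enrichment of 4.35. The region was called in 1 dog for *H3K27ac* and in every dog for *E2F1*. In ancestral dog 3, a 447-base region at chr5:74166544-74166990 was overlapped by *E2F1* peaks of 4 dogs, with an own *E2F1* fold enrichment of 34.1. In derived dog 3, at chr7:23371172-23372035 (own *E2F1* fold enrichment 38.5), derived dog 2, at chr5:31656127-31656451 (17.7), and ancestral dog 2, at chr7:34781708-34782165 (9.10), the *E2F1* peak was in that dog alone. Much of the *E2F1* peak could lie outside the region. In derived dog 2, 18 of its 2036 bases fell inside, and in derived dog 3 63 of 353, while in ancestral dog 2 all 269 did.

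The same comparison in regions of more dogs placed the single-dog values on a scale. Averaged over the 6 *E2F1* lists, the share with an *E2F1* peak was 3.16% where the dog had the only *H3K27ac* peak and 1.94% in the single-dog regions of others. For regions of 2 dogs it was 4.25% where the dog had an *H3K27ac* peak and 3.01% where it had none, and for regions of 5 dogs it was 8.92% and 6.21%. The list of derived dog 2 carried most of these gaps. Without it the shares were 2.17% and 1.86% for 1 dog, 3.17% and 2.87% for 2 dogs and 7.39% and 6.62% for 5 dogs. The list of derived dog 2 showed the widest gap at every number of dogs, 16.5% against 4.18% in regions of 5. The list of ancestral dog 2 was the lower where that dog had an *H3K27ac* peak in regions of 2 to 5 dogs, for example 8.53% against 11.0% in regions of 5.

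**Figure D5:**
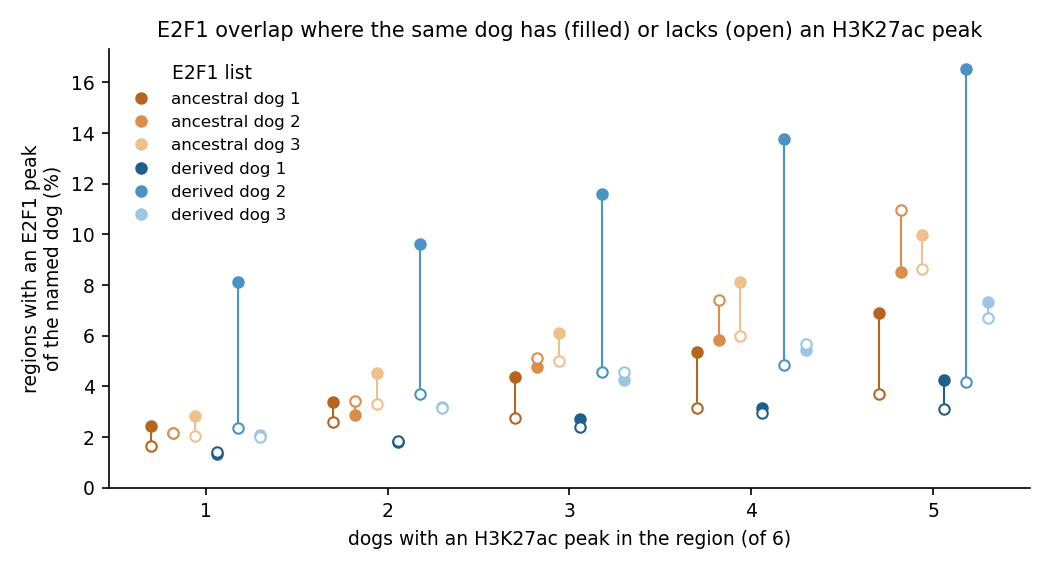
Percent of merged *H3K27ac* regions with an *E2F1* peak of the named dog, by the number of dogs with an *H3K27ac* peak (1 to 5 of 6). Filled points are regions where that dog has an *H3K27ac* peak and open points regions where it has none, joined by a line for each *E2F1* list. Derived dog 2 has the longest line at each number, from 8.13% against 2.35% in single-dog regions to 16.5% against 4.18% in regions of 5 dogs.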

How the data were processed

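*H3K27ac* and *E2F1* *ChIP-seq* peak lists of 6 dogs were analysed. The authors trimmed the reads (Trim Galore), mapped them to CanFam3.1 with bowtie without discarding reads that map to several places, and dropped duplicates that shared a unique molecular identifier (umi_tools). Peaks were called per dog with macs2 (2.2.0 in the submitters' notes), broad for *H3K27ac* and narrow for *E2F1*. Whether input DNA entered the calls is not given in the sources used here, and the input libraries were not analysed here. The deposited fold enrichment is a ratio to the local background. The deposited significance columns are the caller's −log10 p-value and −log10 q-value, means over the peak where it is broad. Spike-in scaling and removal of input-enriched peaks were later steps of the authors that the lists do not include, so fold and q were used to rank peaks within a list and to set thresholds, and values of different dogs are printed side by side without a comparison of size.

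All deposited *H3K27ac* peaks on chromosomes 1 to 38 were merged over dogs when they overlapped or touched. The lowest −log10 q in these lists was 1.00, which is the broad cutoff of 0.1, so they also hold peaks above the stated level of 0.05. *E2F1* peaks with q below 0.0005 were used, at an overlap of at least 1 base. Exact permutation tests of *E2F1* overlap ran over 720 assignments of *E2F1* lists to dogs and 64 sign flips. Genotype differences in number and share are given without a p, since the regions were chosen on these peaks and the dogs' counts depend on each other. The p-values of the reassignment tests rank the true pairing of the lists among all pairings and do not measure the spread between dogs. The sign-flip p-values rest on the spread of the per-dog differences. Each dog gave 1 library per antibody. The code was tested on simulated lists with planted single-dog regions. The regions named are, for each dog, the one with the highest −log10 q, the widest, the one with the strongest own-dog *E2F1* peak and the fullest 1-Mb bin. The regions, tests and windows were chosen with earlier results of these data known. Alternatives were stricter thresholds (0.05 and 1e-05 for *H3K27ac*, 1e-10 for *E2F1*, and no *E2F1* threshold), equal list lengths, merging over 1000 bases, regions at least 5000 bases from other dogs' peaks, bins left out, each of the dogs left out, and pairing of the dogs by replicate number. Python 3.11.15 with numpy 2.4.6 and pandas 2.3.3 was used. Coordinates are 1-based.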

Additional observations from a re-analysis of the deposited data

Results flagged for a closer look

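Derived dog 2 stood apart among the 6 dogs in the own minus other *E2F1* overlap, 5.09 percentage points, with a gap to the next dog of 0.745 of the whole range, above Dixon's critical value for 6 values. Such a gap arises by chance in about 1 of 20 groups, and 2 measures of *E2F1* overlap were looked at.

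Chromosome X, which was outside the autosomes analysed, held 4541 merged *H3K27ac* regions, of which 1715 (37.8%) were called in 1 dog. Ancestral dogs 1 to 3 had 548, 168 and 150 of these and derived dogs 1 to 3 had 262, 216 and 371.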

How the results depend on the processing

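Of 97 alternative values for 7 results, 84 kept their direction and side of the threshold, or moved by less than the spread between dogs. For the genotype differences in number and share, only the direction could change. Their side of the threshold was fixed, since an exact permutation test of 3 dogs against 3 cannot give a p below 0.1. The genotype difference in the number of single-dog regions, -2602, became 557 with *H3K27ac* peaks at q below 1e-05 and 528 with equal list lengths, and the difference in shares, -1.52 points, became 1.43 and 0.442. These are descriptions without a test. With dogs left out in turn, the number ranged from -7329 to 6618 and the share from -5.46 to 5.63 points. It turned positive without ancestral dog 1 in both and without derived dog 2 in the share. With the replicate block, the differences of -2602 regions and -1.52 points are the same by construction, since each block holds 1 dog of each genotype. They nevertheless count among the 84. Same-numbered dogs did not deviate together over 1-Mb bins (r = -0.0880, -0.371 and -0.303 for numbers 1 to 3, across bins). Pairs of an ancestral and a derived dog with different numbers had r from -0.185 to 0.372. These values cannot show whether dogs of the same number were processed together. At q below 1e-05 the mean median width moved to 897 bases and the distance to 26063 bases. Regions at least 5000 bases from other dogs' peaks were 3.35% of a dog's regions, at a mean median distance of 41118 bases. These last 2 follow from the choice itself.

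The own minus other *E2F1* difference ranged from 0.0832 points (*E2F1* q below 1e-10, exact permutation p = 0.0181) to 3.46 points (*H3K27ac* q below 1e-05). The last rested largely on derived dog 2, at 14.2 points. Ancestral dogs 1 to 3 were at -1.25, 5.91 and 3.66, derived dog 1 at -2.17 and derived dog 3 at 0.433. The mean over the 5 dogs other than derived dog 2 was 1.32 ± 3.40. At the thresholds of the report, the difference was 0.726 to 1.37 with dogs left out in turn, and it was 2.15 with all deposited *E2F1* peaks. The exact sign-flip test left it at 1.22 points with p = 0.0938. On a log2 scale, added after the data were examined, it was 0.53. The same minus other genotype difference, -0.149, became 0.142 without derived dog 2, and with dogs left out it ranged from -0.284 to 0.142. All 17 named regions still had a peak at q below 0.05, and 11 of them at q below 1e-05. A stricter threshold only removes peaks, so it could not add a dog to them. With merging over 1000 bases they were called in 1 dog, and each lay over 1000 bases from another dog's peak beforehand. The lists hold no reads, so a missing peak may be a peak just under the threshold, and counting error is unknown.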
